A study of Mus musculus with 47 samples.

Results

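The 34 genes described here are markers of astrocytes and radial glia, followed in RNA sequencing of cultured mouse microglia that carried different forms of the apolipoprotein E gene. They were taken by name from a list of such markers, and all 34 were found, as protein-coding genes, among the 53697 genes of the deposited table. Astrocytes are the glial cells that clear glutamate and potassium from the space around synapses, feed neurons and wrap blood vessels with water-channel-rich endfeet. They arise from radial glia, the stem cells of the developing brain, and the genes followed here serve those tasks: glutamate uptake, water and ion handling, lipid metabolism, matrix secretion and the transcription factors that hold glial fate.

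The study asked how APOE genotype changes microglia at rest and after myelin. Forebrain primary microglia from mice on a C57BL/6 background were grown in medium with fetal bovine serum. The 47 libraries fell into 10 groups: 5 genotypes, each left untreated or given myelin for 3 h, and all collected at 24 h. WT cells carried the mouse Apoe gene, E3 and E4 cells carried human APOE ε3 or ε4 in place of both mouse alleles, KO cells lacked Apoe, and Het cells were titled Apoe plus minus, read here as heterozygous, with the same strain number as KO. Groups held 5 libraries, except E3 untreated, E3 with myelin and Het with myelin, which held 4. The WT and the Apoe lines came from the Jackson Laboratory and the E3 and E4 lines from Taconic, so supplier and humanised genotype cannot be told apart. The labels do not say whether the libraries of a group came from separate mice, so p-values here rest on library-to-library spread that may be only technical.

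Levels are TPM (each gene per transcript length, as a share of its library), rescaled in each library to a total of 1000000 over nuclear protein-coding genes. That total took 0.468% to 27.3% of a library's TPM, and its group means for untreated cells were 23.2% in WT, 13.6% in E3, 12.1% in E4, 20.8% in KO and 10.7% in Het. The files hold no read counts, so depth is unknown. Mouse Apoe averaged 57083 in WT, 42100.1 in Het, 74.8 in KO, 107 in E3 and 178 in E4, which follows the labels. The microglial gene Cx3cr1, the fractalkine receptor, was detected in every genotype, with means in untreated cells from 251 in Het to 409 in E4. Of 20 microglial genes listed, 17 or 18 averaged 5 or more in each untreated group. Siglech stayed under 1 in every WT, E3, E4 and KO library. P2ry12 reached 5 in 19 of the 47 libraries and Sall1 in 10. Differences are in log2(level + 1) with their standard error, which understates the change of low genes, and a gene was called at an adjusted p under 0.05 over 10905 genes tested in limma.

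The summed level of the 34 genes was many times higher in both humanised lines than in any other genotype. In untreated cells it was 366 ± 35.8 in WT (SD, n = 5), 3807 ± 405 in E3 (SD, n = 4), 6309 ± 851 in E4 (SD, n = 5), 298 ± 27.3 in KO (SD, n = 5) and 196 ± 67.8 in Het (SD, n = 5). The E3 mean was 10.4 times and the E4 mean 17.2 times the WT mean, and E4 was 1.66 times E3. No library of E3 or E4 came near a WT, KO or Het library: the lowest E3 sum was 3479 and the highest WT sum 413. The E3 sums ended at 4387, below the lowest E4 sum of 5597. In bulk RNA, fewer cells of a type and less RNA of that type per cell cannot be told apart, so these sums do not separate astrocyte number from astrocyte gene activity.

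**Figure D1:**
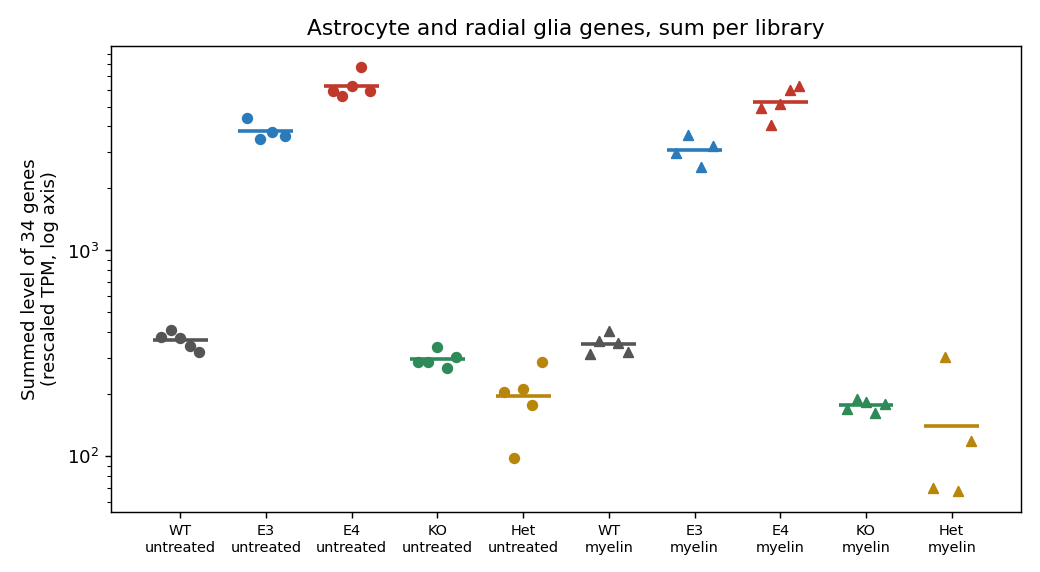
Summed level of the 34 astrocyte and radial glia genes in each of the 47 libraries (rescaled TPM, log axis) by genotype and treatment; circles are untreated, triangles are myelin libraries, and lines mark group means. The lowest E3 or E4 library is at 2541 and the highest library of WT, KO or Het at 413.

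Of the 34 genes, 31 passed the filter on low values (a level of at least 5 in at least 4 libraries), and Gjb6, Cldn10 and Dio2 did not. For 13 of the 31 the filter was met only with the E3 and E4 libraries, so a difference from WT was built into their passing. These 13 were Slc1a2, Sox9, Ntsr2, Hes5, S100b, Fgfr3, Slc4a4, Ntrk2, Ptprz1, Sox2, Cspg5, Ttyh1 and Id4. In untreated E3 against WT, 30 of 31 were called higher and 0 lower, where 29.1% of all genes tested were called higher and 25.6% lower. In untreated E4 against WT the count was again 30 higher and 0 lower, with 32.6% of all genes called higher and 31% lower; both comparisons used the same WT libraries. The median difference over the members was 2.42 in E3 against WT, beside 0.03 over all genes tested. Without any filter all 34 could be tested: 31 were called higher and 1 lower in E3 against WT, where 16.8% of 27099 genes were called higher and 10.9% lower. After myelin, 30 of 31 were higher in E3 than in WT (background 20.7% higher and 11.8% lower) and 30 of 31 in E4 (background 29.5% higher and 21.5% lower), with 0 lower in either. In each of these 4 comparisons Gja1 was the 1 member of the 31 that was not called.

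The filaments and calcium-binding proteins of astrocytes were led by Gfap, the intermediate filament protein that is the classical astrocyte marker (chromosome 11, 102887336 to 102900912, minus strand, GENCODE annotation of mm10). Gfap lay at 34.9, 37.5, 38.6, 39.8 and 30.4 in untreated WT, at 415, 321, 412 and 419.8 in E3 and at 774, 757, 1081, 1493 and 1131 in E4. Every E3 library was above every WT library, and every E4 library above every E3 library. The difference was 3.4 ± 0.20 (SE) for E3 against WT (adjusted p = 2.1e-16) and 1.38 ± 0.20 for E4 against E3 (adjusted p = 3.3e-06). Gfap in KO lay at 39.8, 28.7, 42.5, 26.9 and 21.5, overlapping WT, and in Het at 30.3, 9.44, 16.1, 12.7 and 7.09. S100b, a calcium-binding protein of astrocytes, was much lower, with a mean of 1.39 ± 0.431 in WT (SD, n = 5), 4.44 ± 0.285 in E3 (SD, n = 4) and 9.86 ± 1.62 in E4 (SD, n = 5). In untreated Het, S100b ran from 1.58 to 16.2, the highest value being that of replicate 5.

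Glutamate transporters followed the same order among WT, E3 and E4. Slc1a3, which encodes the glutamate transporter GLAST that is already active in radial glia, lay at 6.98, 8.61, 9.11, 7.12 and 5.25 in WT, 109.8, 83.9, 120.3 and 100.8 in E3 and 145, 177, 204, 299 and 214 in E4. The 3 groups did not overlap, and E4 exceeded E3 by 0.97 ± 0.18 (adjusted p = 1.4e-04). Slc1a2, the transporter GLT-1 that marks mature astrocytes, was far lower: 0.838, 0.435, 1.03, 0.677 and 0.651 in WT, 5.19, 4.02, 5.82 and 3.33 in E3 and 9.46, 8.28, 7.93, 20.1 and 11.1 in E4. Its E4 against E3 difference of 1.09 ± 0.33 (adjusted p = 0.018) was not called without E4 replicate 4 (0.88, adjusted p = 0.069) or without E3 replicate 4 (0.98, adjusted p = 0.065). In KO, Slc1a2 lay at 7.42, 1.71, 3.15, 2.47 and 0.892 and in Het at 0.677, 3.55, 6.91, 0.535 and 6.78. These libraries ran from WT levels to above the highest E3 library. The sodium pump subunit Atp1b2 averaged 9.36 in WT, 50.2 in E3 and 101.02 in E4. The bicarbonate transporter Slc4a4 averaged 1.36, 4.77 and 6.08 in the same groups, and its E4 against E3 difference of 0.28 ± 0.16 was not called (adjusted p = 0.26).

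Among channels and junction proteins, the water channel of the endfeet rose with 2 other membrane proteins, while the main gap junction gene was not called. Aqp4, the water channel, lay at 12.2, 17.3, 11.8, 12.5 and 10.5 in WT, 169, 132, 199 and 152 in E3 and 141, 232, 247, 351 and 237 in E4. WT stood apart, but the E3 and E4 libraries overlapped, and the difference of 0.52 ± 0.19 between them was not called (adjusted p = 0.051). Mlc1, a membrane protein of the endfeet, lay at 5.69, 7.58, 6.27, 5.79 and 4.699 in WT, 108, 79.4, 102 and 89.6 in E3 and 111, 139, 159, 231 and 166 in E4. Ttyh1, a membrane protein of the tweety family that is high in glia and neural stem cells, lay at 2.2, 4.02, 2.81, 2.84 and 2.42 in WT, 61.4, 37.4, 47.02 and 44.5 in E3 and 54.98, 63.9, 72.1, 115 and 76.4 in E4. Both genes separated WT from E3 without overlap, by 3.78 ± 0.18 for Mlc1 (adjusted p = 1.7e-18) and 3.65 ± 0.21 for Ttyh1 (adjusted p = 2.5e-16). Ttyh1 met the filter only with the E3 and E4 libraries, so a difference from WT was built into its passing.

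Gja1, which encodes connexin 43, the chief gap junction protein of astrocytes and one that fibroblasts also make, broke the pattern (chromosome 10, 56377330 to 56402513, plus strand). It lay at 49.05, 41.6, 42.5, 51.2 and 43.02 in WT, 37.7, 28.5, 37.9 and 28.9 in E3 and 30.1, 34.2, 38.8, 62.6 and 43.5 in E4. The E3 libraries were all below the WT libraries, while the E4 libraries spanned both. The difference was -0.45 ± 0.32 for E3 against WT (adjusted p = 0.24) and -0.16 ± 0.30 for E4 against WT (adjusted p = 0.66). Gja1 supplied 12.4% of the members' summed level in WT, 0.873% in E3 and 0.663% in E4. The second connexin of astrocytes, Gjb6, stayed near 0, with group means from 0.0452 in E3 to 0.702 in KO for untreated cells. The KO mean rests on replicate 5 at 3.08 and is 0.108 without it, and Het replicate 5 lay at 2.65. Cldn10, a claudin found in astrocytes, averaged 0.0156 in WT, 0.479 in E3 and 1.42 in E4.

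**Figure D2:**
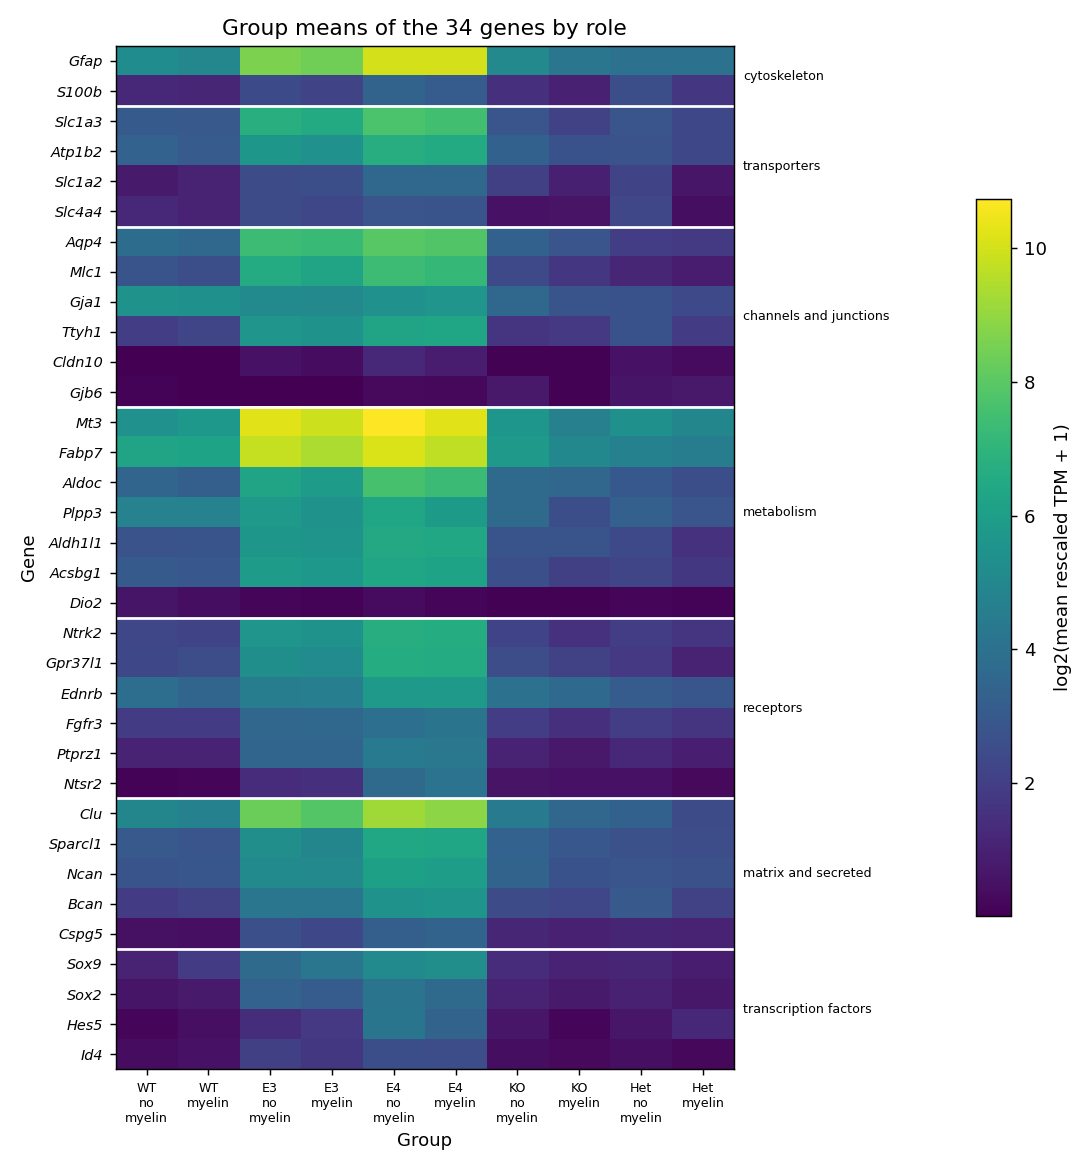
Group means of the 34 genes as log2(mean rescaled TPM + 1), with genes in rows ordered by role and the 10 groups in columns. The E3 and E4 columns are brighter than the rest in most rows. Gja1, Gjb6 and Dio2 are rows where they are not. In the S100b row untreated Het is above both E3 columns, and in the Slc4a4 and Cldn10 rows it is above E3 with myelin.

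The metabolic genes held the most abundant members. Mt3, a metal-binding metallothionein of astrocytes and neurons (chromosome 8, 94152607 to 94154146, plus strand), lay at 38.2, 53.5, 50.5, 30.5 and 40.6 in WT, 1465, 1228, 1092 and 1097 in E3 and 2134, 1706, 1639.7, 1559 and 1397 in E4. E3 was above WT by 4.82 ± 0.22 (adjusted p = 2.0e-19), the largest member difference in that comparison. E3 and E4 overlapped for Mt3, and their difference of 0.46 ± 0.22 was not called (adjusted p = 0.14). Mt3 made up 32.1% of the members' summed level in E3 and 26.7% in E4, against 11.7% in WT. Fabp7, the fatty acid binding protein of radial glia, lay at 82.8, 94.9, 78.1, 60.7 and 64.4 in WT, 1062, 787, 902 and 762 in E3 and 1131, 1151, 1076, 1303 and 864 in E4. E3 and E4 again overlapped for Fabp7, with a difference of 0.33 ± 0.14 (adjusted p = 0.10).

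Aldh1l1, a folate enzyme widely used to label astrocytes, lay at 5.74, 6.29, 4.77, 7.54 and 4.3 in WT, 57.1, 49.4, 47.9 and 44.5 in E3 and 78.5, 75.3, 92.6, 114 and 84.7 in E4. The 3 groups did not overlap, and E4 exceeded E3 by 0.82 ± 0.14 (adjusted p = 3.7e-05). Aldoc, the brain form of the glycolytic enzyme aldolase, averaged 10.5 in WT, 76.4 in E3 and 197 in E4. Acsbg1, which activates long fatty acids, averaged 7.19, 58.7 and 80.1 in the same order. Plpp3, a lipid phosphatase, had a smaller rise, from 30.9, 26.6, 25.6, 24.7 and 22.5 in WT to 59.5, 51.4, 55.5 and 52.2 in E3 and 66.6, 64.2, 86.9, 97.2 and 84.3 in E4. Dio2, the deiodinase that activates thyroid hormone, averaged less in E3 than in WT, from 0.536 in WT to 0.1097 in E3, both under a level of 1; it was the 1 member called lower in the fit without a filter (difference -0.46 ± 0.06, adjusted p = 2.7e-07).

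Receptors and surface proteins ranged from a modest to a large rise. Ntrk2, the receptor for brain-derived neurotrophic factor that astrocytes make mostly in a truncated form, averaged 3.95 in WT, 47.05 in E3 and 102 in E4. The orphan receptor Gpr37l1 averaged 4.04, 39.6 and 98.9, and the receptor phosphatase Ptprz1 1.15, 10.5 and 19.95. Ednrb, the endothelin B receptor, had the smallest called difference between E3 and WT, 0.68 ± 0.19 (adjusted p = 0.0028), with means of 13.8 and 22.7. Fgfr3, a fibroblast growth factor receptor, averaged 2.69 in WT, 10.6 in E3 and 14.4 in E4, and E4 and E3 were not called different (adjusted p = 0.22). Ntsr2, a neurotensin receptor found mostly in astrocytes, lay at 0, 0.259, 0, 0.0274 and 0.241 in WT, 2.23, 1.37, 1.29 and 1.65 in E3 and 6.44, 3.42, 9.03, 21.9 and 20.3 in E4. Ntsr2 was spread widely within E4, yet its lowest E4 library was above its highest E3 library.

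Secreted and matrix genes were all called higher in E3 than in WT. Clu, a lipoprotein-associated chaperone, lay at 29.5, 34.3, 31.2, 26.8 and 25.6 in WT, 333, 285, 305 and 339.6 in E3 and 514, 452, 580.00, 790.04 and 586 in E4, with no overlap among the 3. Sparcl1, a secreted protein that promotes synapse formation, averaged 7.13, 38.8 and 86.5 in WT, E3 and E4. The perineuronal matrix proteoglycans Ncan and Bcan averaged 5.89 and 2.82 in WT, 34.1 and 17.8 in E3, and 67.1 and 43.5 in E4. Cspg5, a membrane proteoglycan, averaged 0.406, 5.26 and 8.54. All 5 but Cspg5 were also called higher in E4 than in E3.

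Transcription factors of glial fate were low in WT and averaged most in E4. Sox9, which drives and maintains the astrocyte lineage, lay at 1.55, 1.19, 1.09, 0.946 and 0.996 in WT, 16.6, 9.07, 10.4 and 11.98 in E3 and 23.3, 21.6, 29.9, 52.3 and 40.1 in E4. Hes5, a target of Notch signalling in radial glia (chromosome 4, 154960923 to 154962371, plus strand), lay at 0.236, 0.368, 0.187, 0 and 0 in WT, 1.36, 1.88, 1.701 and 1.77 in E3 and 12.1, 11.02, 20.1, 24.9 and 18.3 in E4. For both genes the 3 groups did not overlap, but both met the filter only with the E3 and E4 libraries. Sox2, a factor of neural stem cells and glia, averaged 0.564, 9.34 and 16.5, and Id4, an inhibitor of helix-loop-helix factors, averaged 0.287, 3.16 and 5.03 in WT, E3 and E4. Id4 overlapped between E3 and E4, and its call there was lost with a pseudocount of 0.1 (adjusted p = 0.12).

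Between the humanised lines, untreated E4 was higher than E3 for 23 of 31 members and lower for 0, where 8.36% of all genes tested were called higher and 9.16% lower. For 6 of the 31 (Ntsr2, Hes5, S100b, Slc4a4, Cspg5 and Id4) the filter was met only with the E4 libraries, so a difference from E3 was built into their passing, here and after myelin. Without any filter, 23 of 34 were called higher (background 4.14%) and 0 lower (background 4.38%), and after myelin 25 (background 3.29%) and 0 (background 2.31%). The median difference over the 31 was 0.86, beside 0.02 over all genes. The 8 members not called were Slc4a4, Gja1, Fabp7, Fgfr3, Mt3, Aqp4, Plpp3 and Cspg5, whose differences ran from 0.28 to 0.60. The largest were Hes5 and Ntsr2, both among those 6, at 2.71 ± 0.22 (adjusted p = 4.8e-11) and 2.07 ± 0.35 (adjusted p = 4.7e-05), and Gfap at 1.38 ± 0.20. As ratios of means, E4 was 10.3 times E3 for Hes5, 7.47 times for Ntsr2 and 2.67 times for Gfap, but 1.26 times for Fabp7 and for Gja1. After myelin E4 was higher for 25 of 31 members (background 6.66%) and lower for 0 (background 5.54%). Gfap and Ntsr2 led again there with Hes5, at 1.56, 2.34 and 1.61. In 21 of the 31 every untreated E4 library exceeded every E3 library (7.14% of all genes tested did so).

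**Figure D3:**
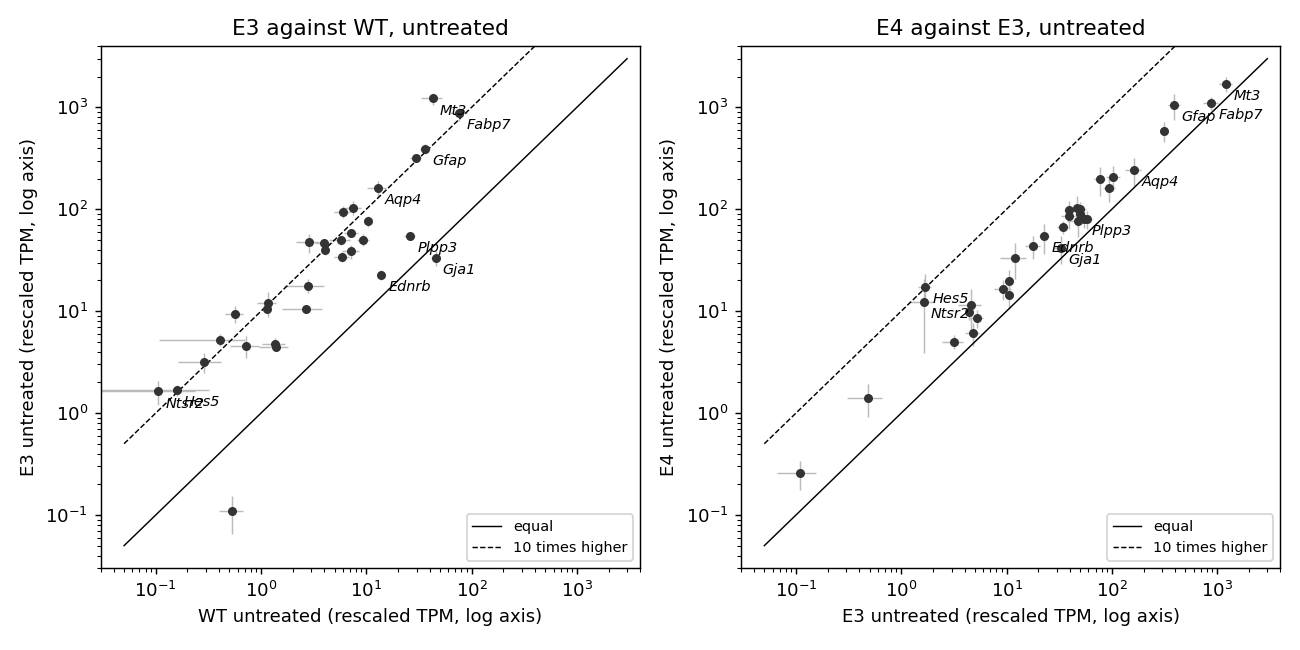
Mean rescaled TPM of each member in untreated E3 against WT (left) and E4 against E3 (right), both axes logarithmic, with bars of 1 SD (lower bars stop short of 0) and lines at equality and at 10 times. Members with a mean of 0.05 or less in either group are not drawn; most E3 points lie near the 10-times line, with Plpp3, Ednrb and Gja1 closer to equality, and Hes5 is the point on that line at right.

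Promoter windows are shown for 2 of the 3 genes with the largest E4 against E3 difference, and hold short motifs of factors tied to glial fate. Ntsr2, the gene of the 3 not shown, also held the STAT motif given below. The windows run from 250 bases before to 50 after the RefSeq start (GRCm38.p6), and 28 of the 34 members matched the RefSeq table, with 32 windows. In all, 8 motifs were searched on both strands, and the windows were chosen after the matches were seen. Capitals mark the STAT motif TTCNNNGAA in Gfap (chr11:102897151-102897450, minus strand) and the RBPJ motif GTGGGAA, on either strand, in Hes5 (chr4:154960673-154960972, plus strand).
Gfap: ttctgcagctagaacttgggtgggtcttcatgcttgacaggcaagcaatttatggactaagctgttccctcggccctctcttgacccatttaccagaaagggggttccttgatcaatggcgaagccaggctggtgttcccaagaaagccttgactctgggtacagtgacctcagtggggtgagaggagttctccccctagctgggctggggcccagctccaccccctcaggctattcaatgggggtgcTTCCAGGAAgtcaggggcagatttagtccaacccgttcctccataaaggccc
Hes5: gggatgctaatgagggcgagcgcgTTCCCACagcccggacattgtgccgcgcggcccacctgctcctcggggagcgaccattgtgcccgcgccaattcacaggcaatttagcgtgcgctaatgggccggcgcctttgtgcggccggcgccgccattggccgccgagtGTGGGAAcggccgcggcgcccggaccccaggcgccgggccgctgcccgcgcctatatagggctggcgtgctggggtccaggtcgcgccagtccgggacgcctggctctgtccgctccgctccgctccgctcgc
The Gfap match TTCCAGGAA begins 2 bases before the start, and the Hes5 matches begin 226 and 83 bases before it. RBPJ is the DNA-binding partner of Notch, and STAT factors act in cytokine-driven astrocyte formation. The RBPJ motif stood in 6.38% of all 32851 windows and in those of 3 members (Aldoc, Hes5 and Ncan), and the STAT motif in 8.3% and in those of 5 members (Acsbg1, Aldoc, Gfap, Ntsr2 and Slc1a3). A narrower STAT form contained in it, TTCCNGGAA, stood in 1.15% and in Aldoc and Gfap. The SOX motifs ACAAAG and CATTGT stood in 18.7% and 12.6%, with 4 and 2 members. The full NFI palindrome stood in 0.0365% and no member, its half-site TTGGCA in 14.1% with 3 members, and the E-box CACGTG in 7.15% with 1 member, Ntsr2. A match describes letters only and was not tested as a binding site.

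Without Apoe, the members split in direction in untreated cells, where their counts lay near or below the background. After myelin nearly all the members called were lower than in WT. In untreated KO against WT, 6 of 31 were called higher (26.5% of all genes) and 8 lower (29.5% of all genes), with a median of 0.08 beside -0.02 over all genes. Gja1 fell the most: KO libraries lay at 5.97, 5.57, 7.55, 4.96 and 33.9, against 41.6 to 51.2 in WT, a difference of -2.27 ± 0.30 (adjusted p = 5.4e-08). Plpp3 lay at 7.18, 6.45, 8.31, 5.97 and 32.4 in KO, a difference of -1.35 ± 0.24 (adjusted p = 8.2e-06). KO replicate 5 stood apart for both genes, and the differences without it were -2.74 for Gja1 and -1.76 for Plpp3. The summed level of 20 fibroblast and pericyte genes was 1205 in that library and 243 to 449 in the other KO libraries, and averaged 3941 in WT; its part in the Gja1 and Plpp3 results was not tested. Slc4a4 was next, from 1.37, 0.907, 1.39, 1.83 and 1.29 in WT to 0.237, 0.165, 0.439, 0.8099 and 0.635 in KO (-0.70, adjusted p = 1.7e-04).

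Higher in KO were Slc1a2 (1.08 ± 0.31, adjusted p = 0.0034), Cspg5 (0.67 ± 0.21, adjusted p = 0.0057) and Ncan (0.64 ± 0.12, adjusted p = 1.9e-05). Cspg5 lay at 0.784, 0.415, 0.609, 0.102 and 0.119 in WT and 1.48, 1.501, 1.74, 0.952 and 0.546 in KO. Ncan lay at 7.32, 6.49, 5.15, 5.27 and 5.23 in WT and 11.4, 8.91, 10.9, 10.4 and 7.22 in KO. All 3 overlapped between the groups. Gfap, Slc1a3 and Aldh1l1 were not called, at -0.22 ± 0.19, -0.21 ± 0.17 and 0.08 ± 0.13. When the Het libraries were added to the fit, with no weights, the untreated count fell to 6 of 31, 4 higher and 2 lower. Over all genes that fit called 2177 of 10905 higher and 2404 lower. After myelin, 1 member was higher in KO than in WT (Cspg5, background 29.2%) and 17 were lower (background 25.4%). With the Het libraries in the fit, 11 members were called after myelin, all lower, beside 2262 genes higher and 2083 lower. Fabp7 then lay at 63.2, 93.6, 78.03, 67.4 and 70.8 in WT and 34.1, 37.3, 30.2, 29.1 and 26.8 in KO, with no overlap and a difference of -1.21 ± 0.13 (adjusted p = 9.1e-10).

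Het cells had the lowest mean sums of the 34 genes, but also the libraries with the least coding RNA. In untreated Het against WT, 13 of 31 were called lower (45.1% of all genes) and 2 higher (19.7% of all genes). Here the scale mattered: with a trimmed-mean scale the members split 9 lower and 4 higher and all genes 3345 lower and 3283 higher, instead of 4918 and 2147; the median of all genes moved from -0.28 to -0.0045. With no filter, 9702 genes were higher and 5437 lower, with a median of 0.17, and the members were 2 higher and 14 lower of 34. Gja1 lay at 5.91, 2.67, 4.21, 6.45 and 8.58, Aqp4 at 3.44, 1.18, 0.921, 5.72 and 3.16 and Mlc1 at 1.18, 0.9503, 0.408, 1.61 and 2.25 in Het. All 3 were below every WT library, with differences of -2.89 ± 0.34, -1.97 ± 0.30 and -1.66 ± 0.20 (adjusted p = 1.3e-09, 4.3e-07 and 3.5e-09). The higher pair, Slc1a2 and S100b, was not called without single Het libraries: Slc1a2 reached adjusted p = 0.052 without replicate 3 and S100b 0.14 without replicate 5. Coding RNA took between 0.468% and 18.4% of these 5 libraries, and its part in the Het result was not tested.

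With myelin, few members were called in WT, E3 and E4, and 10 of those tested fell in KO. The mean summed level went from 366 to 353 in WT, from 3807 to 3090.3 in E3 and from 6309 to 5275 in E4, with overlapping libraries in each. In WT only Sox9 was called, higher by 0.75 ± 0.19 (adjusted p = 0.020; 4.17% of all genes were called higher and 0.495% lower). Sox9 lay at 3.23, 1.12, 2.21, 3.23 and 3.94 with myelin, overlapping the untreated 0.946 to 1.55, and was not called without untreated replicate 4 or 5 or myelin replicate 1, 4 or 5, where adjusted p ran from 0.062 to 0.083, nor with no filter (0.059) or with the Het libraries and no weights (0.056). In E3 0 members were called by limma (3.13% of all genes higher, 3.46% lower), and at an unadjusted p under 0.05 there were 1 higher and 3 lower. In E4 Hes5 and Fabp7 fell (background 6.74% lower, 6.85% higher), and at an unadjusted p under 0.05 there were 0 higher and 7 lower. Hes5 in E4 went from 12.1, 11.02, 20.1, 24.9 and 18.3 to 9.94, 5.55, 10.4, 8.04 and 15.3, a difference of -0.76 ± 0.21 (adjusted p = 0.012), and was not called without myelin replicate 2 (-0.59, adjusted p = 0.053), with a pseudocount of 0.1 (0.28) or with the Het libraries and no weights (0.10). Fabp7 in E4 changed by -0.39 ± 0.13 (adjusted p = 0.042), and its call was lost in 9 of the 10 removals of 1 library, all but that of untreated replicate 5, with adjusted p from 0.052 to 0.097; with the Het libraries and no weights it was 0.35. The difference between the E4 and E3 responses was called for 0 members by limma and 0% of all genes, with 0 higher and 1 lower at an unadjusted p under 0.05.

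In KO, 10 of 31 members fell and 0 rose with myelin, where 1.71% of all genes were called lower and 1.14% higher. The summed level of the members went from 268 to 340 in untreated KO libraries to 162 to 190 with myelin. Mt3 in KO went from 41.4, 66.8, 52.7, 45.2 and 36.4 to 28.02, 25.3, 25.5, 19.4 and 24.97, Clu from 17.9, 17.1, 27.5, 18.5 and 24.7 to 12.3, 10.98, 9.69, 11.2 and 10.3 and Gfap from 39.8, 28.7, 42.5, 26.9 and 21.5 to 13.95, 18.7, 18.9, 16.6 and 19.4. For these 3 genes the myelin libraries all lay below the untreated ones, and the differences were -0.93 ± 0.20 for Mt3 (adjusted p = 0.0060), -0.88 ± 0.16 for Clu (adjusted p = 6.9e-04) and -0.80 ± 0.19 for Gfap (adjusted p = 0.011). Gfap was not called without untreated replicate 1 (adjusted p = 0.050) or 3 (adjusted p = 0.053). With the Het libraries in the fit and no weights, 0 of the 10 were called, at adjusted p = 0.43 for Mt3, 0.11 for Clu and 0.68 for Gfap. That fit called few genes of any kind for KO, 4 of 10905 higher and 7 lower. Between these KO groups the mean coding share went from 20.8% to 23.4%, the microglial sum from 33455 to 36023 and the fibroblast and pericyte sum from 527 to 399; their part was not tested. Whether the KO response differed from that of other genotypes was not tested. Over the mean of the 4 genotypes, 13 members fell (background 11.9%) and 1, Sox9, rose (background 12.5%), led by Clu at -0.48 ± 0.08 (adjusted p = 5.3e-05). With the Het libraries in the fit and no weights 4 members were called, beside 706 of 10905 genes higher and 329 lower. In Het, Clu and Slc4a4 fell (background 0.477% lower, 0.422% higher), and 0 members were called without myelin replicate 1 or without replicate 3. Slc4a4 in Het went from 0.863, 0.193, 1.67, 3.86 and 13.3 to 0.186, 0.545, 0.333 and 0.287 with myelin. The 13.3 was that of untreated replicate 5, with a coding share of 0.468%.

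**Figure D4:**
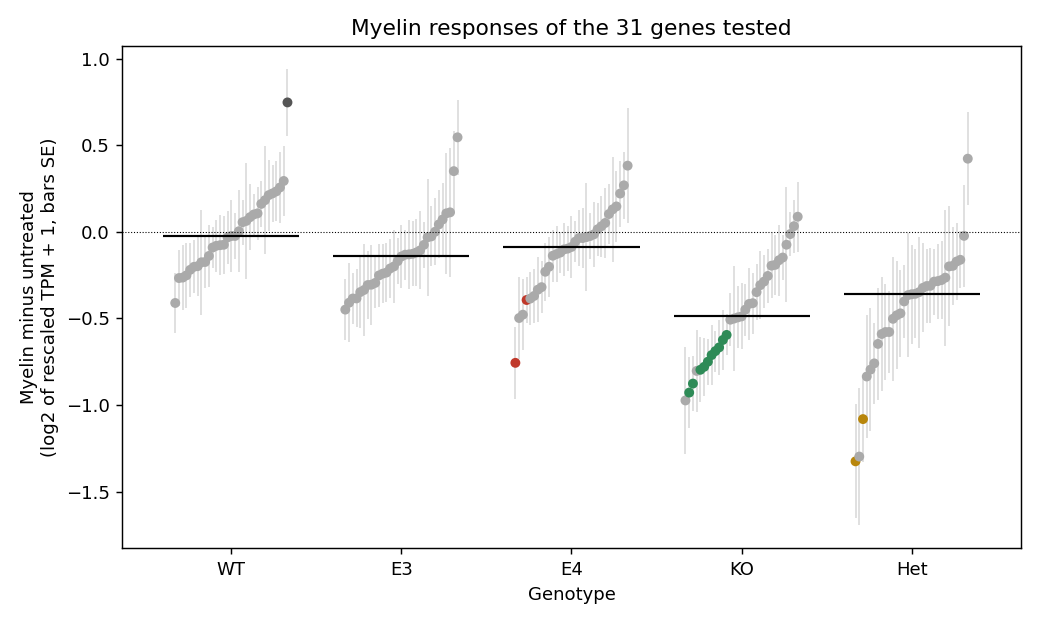
Myelin response (myelin minus untreated, log2 of rescaled TPM + 1, bars SE) of the 31 members tested in each genotype, sorted; coloured points were called, grey points were not, and black lines are medians. The median is lowest in KO, with 10 called points, all below 0.

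Lists of further markers were counted in the same comparisons. In untreated E3 against WT, 14 of 19 further astrocyte genes tested (of 36 listed) were called higher and 1 lower. The shares over all genes were 29.1% higher and 25.6% lower. Slc25a18 (3.02), Htra1 (2.68) and Kcnj10 (2.58) led. The summed level of all 36 did not rise as that of the 34 members did, at 882 in WT, 866 in E3 and 1082 in E4. That sum includes Glul, Pla2g7 and Lfng, which reached 5 in all 47 libraries. Of the 36, 5 averaged 5 or more in WT, 13 in E3 and 19 in E4. Of 16 radial glia and progenitor genes tested (of 20), 14 were higher and 1 lower, with Rfx4 (2.22), Nr2e1 (2.16) and Nes (2.09) leading. All 6 ependymal and choroid plexus genes tested (of 12) were higher, led by Ttr (5.59), Rarres2 (2.99) and Foxj1 (2.93). Of 15 Notch, BMP and fate factors tested (of 21), 6 were higher and 3 lower. Of 33 reactive astrocyte genes tested (of 37), 16 were higher and 9 lower, led by Lcn2 (3.45). These counts stand beside the same 29.1% of all genes called higher and 25.6% lower. The summed level of all 37 reactive genes was 11295 in WT, 10341 in E3 and 10654 in E4. The filter was met only with the E3 and E4 libraries by 12 of the 19 further astrocyte genes, 6 of the 16 radial glia genes (Rfx4 and Nr2e1 among them), 6 of the 33 reactive genes and all 6 ependymal and choroid plexus genes, so their higher level than in WT was built into their passing. Their part in the members' result was not tested.

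In untreated E4 against E3, the further astrocyte genes gave 14 higher and 1 lower of 19 (8.36% and 9.16% of all genes), 5 of which, the leaders included, met the filter only with the E4 libraries. They were led by Itih3 (1.99) and Agt (1.46). Ttr, a gene of the ependymal and choroid plexus list, went the other way (-3.35). On that list, 5 genes averaged 5 or more in untreated E3 and 6 in untreated E4. The summed ependymal and choroid plexus level was 7.44 in WT, 145 in E3 and 88.02 in E4. The fibroblast and pericyte sum ran in another order, 3941 in WT, 3614 in E3, 1794 in E4, 527 in KO and 395 in Het, and Col1a1 averaged 371, 244 and 89.01 in the first 3. The microglial sum was 24715 in WT, 23109.5 in E3 and 29003 in E4. Of 19 microglial genes tested (of 20), 4 were called higher and 8 lower in E3 than in WT (29.1% and 25.6% of all genes). The neuronal sum was 42.04 in WT, 98.2 in E3 and 113 in E4. Of 6 neuronal genes tested (of 18), 4 were called higher and 0 lower in E3 than in WT, and 4 of the 6 met the filter only with the E3 and E4 libraries; Rbfox3 averaged 0.64 in WT and 0.548 in E4. The oligodendrocyte sum was 97.3, 125 and 196, with Mog at 0.0449 in WT and 0.126 in E4. Olig1 rose from 1.52 in WT to 21.8 in E3 and 57.1 in E4. The part of these other markers in the E4 against E3 result was not tested.

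**Figure D5:**
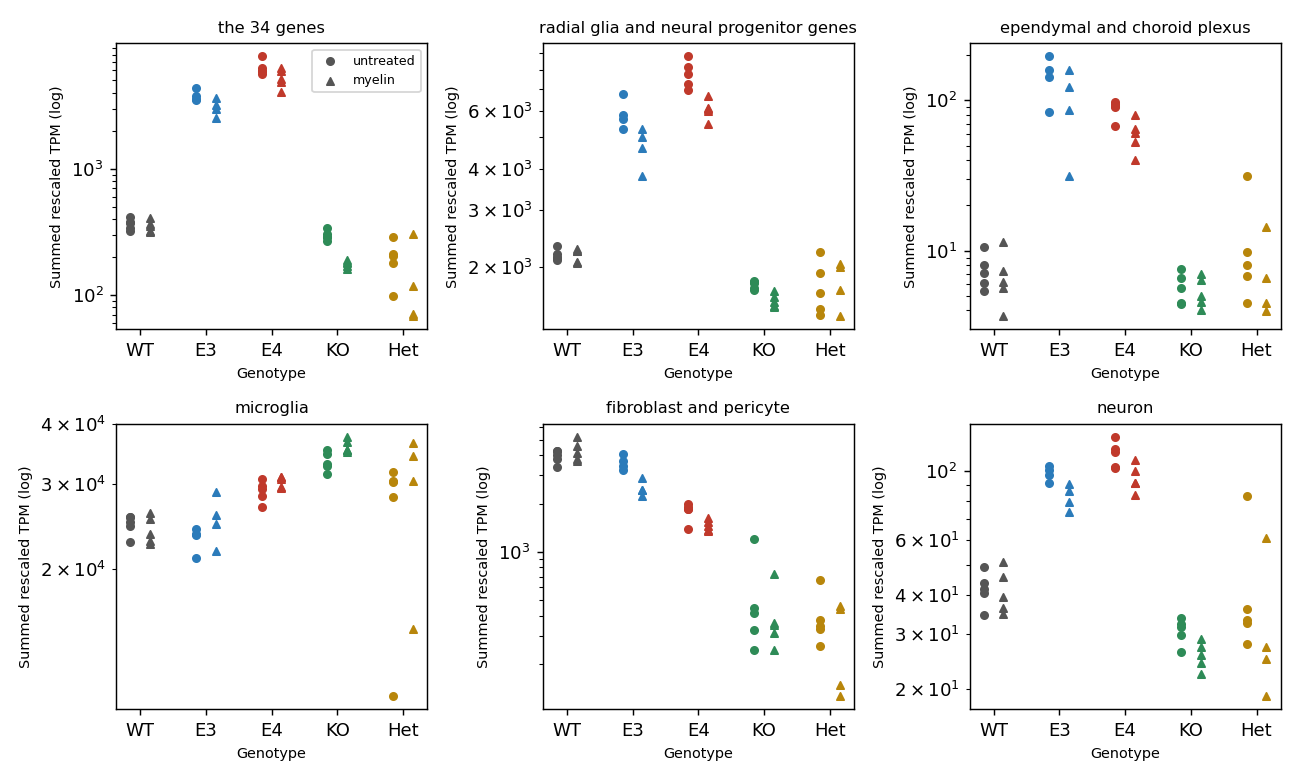
Summed rescaled TPM per library (log axes that differ between panels) of the 34 genes and of 5 other lists of cell markers, by genotype; circles are untreated and triangles are myelin libraries. On average, radial glia, ependymal and neuronal sums are highest in E3 and E4, while the fibroblast and pericyte sum is highest in WT. Single untreated Het libraries reach 83.2 for the neuronal and 31.4 for the ependymal sum. The lowest E3 libraries with myelin are at 74.0 and 31.2.

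Within groups, the members also varied from library to library, in part together. Each gene was centred on its group means over the 38 libraries of WT, E3, E4 and KO. Each member was then set against the mean of 11 members picked as astrocyte markers, leaving the gene itself out. The 11 were Gfap, Aqp4, Slc1a2, Slc1a3, Mlc1, Ntsr2, Aldh1l1, Gja1, Gjb6, Slc4a4 and Gpr37l1, and fibroblasts also make Gja1. Pearson's r, given as a description over libraries that share their scale, was highest for Ntrk2 (0.88), Ptprz1 (0.80) and Gfap (0.79). It was low for Fabp7 (0.24), S100b (0.23), Slc4a4 (0.20) and Gjb6 (0.14), and below 0 for Sox2 (-0.16), Dio2 (-0.09), Mt3 (-0.08), Id4 (-0.03) and Cspg5 (-0.01). Outside the members, the closest of the genes tested were Papss2 (0.87), Naaa (0.85), Fads2 (0.84), S1pr3 (0.84) and Oat (0.84). S1pr3, a sphingosine 1-phosphate receptor, is also on the reactive astrocyte list and was higher in E3 than in WT (2.29). S1pr3 met the filter only with the E3 and E4 libraries, so a higher level than in WT was built into its passing.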

How the data were processed

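Polyadenylated RNA of cultured microglia was sequenced from libraries made with a SMARTer kit for small RNA amounts, per the labels. The authors deposited 1 table of TPM per gene. The submitters' processing notes name Salmon 0.13.1, limma 3.40.6 and mm10; how they were combined is not given in the sources used here. TPM hold no depth.

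TPM were divided by the nuclear protein-coding total of their library and multiplied by 1000000. The 10905 protein-coding or lincRNA genes that reached 5 in 4 or more libraries were tested as log2(value + 1) in limma 3.58.1 (R 4.3.3) with a mean-variance trend, 1 mean per group, two-sided moderated tests and Benjamini-Hochberg adjustment over all of them. The 38 libraries of WT, E3, E4 and KO were fitted together; Het comparisons used all 47. That choice, the lack of library weights, the scale, the members and every marker list were made with earlier results of these data known. Genes named with values are the defining astrocyte and radial glia genes, the 3 called members of largest size per comparison and direction, and the leading genes of other lists. Marker lists, motifs and like patterns are descriptions.

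Alternatives were a trimmed-mean scale, a pseudocount of 0.1, a filter of 1 in 4 libraries, no filter, all 47 libraries with or without weights, a replicate block and the removal of each library. On simulated data for E3 against WT in untreated cells, with 10905 genes, the fit recovered 93% of 100 changes of 2-fold and 74% of 100 changes of 1.5-fold with 10 false calls.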

Additional observations from a re-analysis of the deposited data

Results flagged for a closer look

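Gfap, Aqp4, Slc1a2, Slc1a3, Gja1, Aldh1l1, Fabp7, Hes5 and the summed level were checked for outlying libraries in each of the 10 groups. No other member was checked. In these 90 sets of 4 or 5 values, 7 values stood apart from the rest of their set by Dixon's criterion. Chance meets that criterion in about 1 set in 20. Gfap was 321 in E3 untreated replicate 2, where the other 3 libraries lay between 412 and 419.8. Gja1 was 33.9 in KO untreated replicate 5 and 4.96 to 7.55 in the other KO libraries. Slc1a2 stood apart in 3 groups, at 20.1 in E4 untreated replicate 4, at 3.25 in WT myelin replicate 5 and at 1.60 in Het myelin replicate 2. In Het untreated replicate 5, Slc1a3 was 16.1 and Aldh1l1 was 10.98, against at most 4.47 and 3.55 in the other Het libraries. What set these libraries apart was not tested.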

How the results depend on the processing

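No called difference of a single member changed sign under any alternative run. Counts over all genes did shift sides in places: Het against WT gave 9702 higher and 5437 lower with no filter, instead of 2147 and 4918. The 30 of 31 members higher in E3 and in E4 than in WT, untreated and after myelin, kept that count within 29 to 30 over all removals of 1 library. Members higher in E4 than E3 numbered 20 to 24 untreated and 23 to 25 after myelin over the removals, and 18 in both with 47 unweighted libraries. Of all 10905 genes, the fit to 47 unweighted libraries called 307 higher untreated and 261 after myelin. Counts of myelin responses were less stable. With 47 unweighted libraries (43 for Het), called members numbered 4 for the mean response (14 in the fit reported), 0 for WT, 0 for E4, 0 for KO, 0 for Het, 6 for KO against WT untreated and 11 after myelin. Of all 10905 genes, those fits called 706 higher and 329 lower for the mean response and 212 and 4 for WT. For E4 the counts were 201 and 96, for KO 4 and 7 and for Het 3 and 18. With library weights called members numbered 1 for E3, 4 for E4, 15 for Het and 1 for the difference of the E4 and E3 responses. The E4 response gave 1 with the pseudocount of 0.1, 1 with the filter of 1 in 4 libraries and 1 with no filter; the WT response gave 0 with no filter. The Het response gave 4 on the trimmed-mean scale, 4 with the pseudocount of 0.1 and 1 with the replicate block. The cause of these shifts was not tested.

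Removing 1 library gave 13 to 16 members for the mean response, 0 to 1 for WT, 0 to 0 for E3, 0 to 2 for E4, 7 to 11 for KO, 0 to 10 for Het, 12 to 13 for KO against WT untreated, 13 to 18 after myelin, 13 to 17 for Het against WT and 0 to 0 for the difference of responses. The WT count became 0 without untreated replicate 4 or 5 or myelin replicate 1, 4 or 5. The E4 count became 0 without myelin replicate 2, was 2 without untreated replicate 5 and without myelin replicate 5, where Fabp7 was no longer among the called, and was 1 without any other library. The Het count was 0 without myelin replicate 1 or 3, 1 without untreated replicate 5, 3 without untreated replicate 1 or 4, 4 without untreated replicate 2 or 3, and 10 without myelin replicate 2. Over all removals, 103 of 2722 checks of single called members lost the call.

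Summed over only the 11 members picked as astrocyte markers, the log2 ratio was 2.89 for E3 over WT (3.38 with all 34), 1.11 for E4 over E3 (0.73) and -0.61 for KO over WT (-0.30). These 11 include Gja1, which fibroblasts also make. In untreated WT their mean sum was 120 and Gja1 lay at 41.6 to 51.2. In untreated KO their mean sum was 78.8 and Gja1 lay at 4.96 to 33.9. The part of Gja1 in these ratios was not tested. Replicate numbers did not pair the libraries: of 23 same-numbered pairs 5 correlated over 0.1 (r from -0.52 to 0.46), and 3 correlated best with their own number. The replicate block moved no other count of called members by over 1.5 times. Depth is unknown, so low levels such as those of Hes5 and Ntsr2 in WT carry no counting interval.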
